A study of Mus musculus with 65 samples.

Results

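In a mouse erythroleukemia line, 463 transcribed regulatory elements had a low nascent signal after 1 h of A485, which blocks the acetyltransferase activity of p300 and CBP, and a signal near their DMSO level after 1 h of a degrader of the corepressor Mtg16. They were chosen by their measured A485, degrader and DMSO values among 29632 sites of the A485 series, of which 16380 had a DMSO mean of at least 20. A site was taken if the log2 ratio of group means (each plus 1) to DMSO was -1.5 or less after 1 h of A485, if the same ratio after 1 h of degrader lay between -0.3 and 0.3, and if the DMSO mean was at least 20. The DMSO, A485 1 h and degrader 1 h libraries of that series therefore fixed the choice, and their values for these sites are a description with no test. Among sites with the same A485 and DMSO limits, 397 had a degrader ratio above 0.3 and 458 one below -0.3, and these served for comparison.

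p300 and CBP are related coactivators that acetylate histone tails and other proteins at active enhancers and promoters, where factors such as Gata1 and Tal1 bring them in erythroid cells. Mtg16 (gene Cbfa2t3) is a corepressor of the same Tal1 and Gata1 complexes and is known to recruit histone deacetylases, which remove acetyl groups. Active enhancers are themselves transcribed in both directions, and dREG finds such elements, promoters included, from the pattern of engaged RNA polymerase. PRO-seq labels nascent RNA with a biotin nucleotide in permeabilised cells or nuclei, so that its reads follow polymerase over minutes.

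The 65 samples were all MEL cells with the Mtg16-FKBP-2XHA fusion, so the DMSO controls carried the tag as well, and whether the tagged line was 1 clone is not given in the sources used here. The A485 series compared 250 nM dTAGV1 (the degrader), 10 µM A485 and the combination of both, each for 15 min, 30 min and 1 h, with DMSO, in 3 libraries a group except 2 for A485 and for the combination at 30 min. In the time course, 3 libraries each came from DMSO and from degrader for 15 min, 30 min and 1 h, and 2 from degrader for 2 h. Washout after those 2 h was sampled at 30 min (3 libraries), 1 h (2) and 2 h (3). The LBH589 series compared 5 nM LBH589 (panobinostat), a histone deacetylase inhibitor, for 30 min and 1 h with DMSO (3 libraries each), and its washout series sampled 30 min and 1 h after removal of a 2 h degrader treatment, with LBH589 given as well (3 libraries each). When LBH589 was added in that last series is not given in the sources used here.

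A library of the A485 series had 857558 to 7625202 recovered reads over the sites, a time-course library 1969884 to 6959404, an LBH589 library 2769517 to 4633612 and an LBH589 washout library 1493605 to 3505967. The shallow library was A485 1 h replicate 1, with 4590 reads over the 463 sites; without it the same limits gave 492 sites, 403 of them among the 463. In the time course, degrader 15 min replicate 2, degrader 30 min replicate 3 and 30 min washout replicate 3 correlated negatively with the other libraries of their own group (mean r = -0.21, -0.25 and -0.23 over the 2000 most variable sites). Degrader 30 min replicate 3 was closest to 30 min washout (r = 0.40), and 30 min washout replicate 3 to degrader 1 h (r = 0.36), so time-course results are given with and without these 3 libraries. The unclear grouping went beyond them: 13 of the 22 time-course libraries were closest to their own group, and none of the degrader 15 min and 30 min libraries was. The 5 time-course libraries named degrader 1 h and 2 h carry A485 in their title and treatment label, and are called here by library name. The degrader 1 h and 2 h tests rest wholly on them. Without them the 15 min and 30 min fits called 104 and 114 of the chosen sites, higher and lower together. With all libraries the calls were 113 higher and 1 lower at 15 min, and 129 higher and 4 lower at 30 min. The share of all sites called without them was not counted. In the A485 series DMSO libraries, 7 of the 8 erythroid markers with a value averaged 100 or more, with Gfi1b at 4234 to 4926 and Gata1 at 2048 to 2180 normalised counts, and the globin gene Hbb-bt at 18.3 to 28.9. The erythroid list summed to 15290 to 16200 a library. The T cell, B cell, myeloid and epithelial or fibroblast lists, with values for 11 of 22 genes, each summed to between 18.3 and 121. Ly6g was at 0, and Lck, at 104 to 120, was the highest of the 11.

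The name p300/CBP-dependent sites without degrader response holds for the libraries that chose the sites and less well outside them. In the time course, which shares no library with the choice, 198 of 462 sites had a degrader 1 h ratio within 0.3 of DMSO, 225 lay above and 39 below. These are 42.9%, 48.7% and 8.44% of the sites, where 56.8%, 20.4% and 22.8% of the 16363 sites with a DMSO mean of at least 20 in the A485 series lay within, above and below. The sites are therefore called the A485-lowered sites here. The name stands for these 463 sites only, although the comparison sets passed the same A485 limit. Near the limits, the last sites inside had A485 ratios of -1.501 and -1.502 and the first outside -1.498 and -1.498. The degrader limits passed between 0.299 and 0.303 and between -0.297 and -0.301, and the DMSO limit between means of 20 and 19.98.

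In the A485 series, the signal of these sites was low at 15 min and lower at each later time. The median log2 ratio to DMSO over the 463 sites was -1.31 after 15 min, -1.66 after 30 min and -1.99 after 1 h of A485, the last being a value of the choice itself. With the combination it was -1.10, -1.60 and -1.80 at the same times, and with degrader alone 0.07, 0.09 and -0.04. At a log2 ratio of -1 or less there were 284 sites (61.3%) after 15 min and 398 (86%) after 30 min of A485, as were 10.9% and 13.9% of the 16380 sites with a DMSO mean of at least 20. After 15 and 30 min of degrader, 321 (69.3%) and 328 (70.8%) sites were within 0.3 of DMSO, a share near the 65.9% of those 16380 sites at 15 min and above their 59% at 30 min. The 3 libraries of A485 15 min had site medians of -1.32, -1.24 and -1.34. Those of degrader 15 min were 0.13, 0.05 and 0.05, so the medians differed little in these groups. Other groups agreed less well site by site. Over the 2000 most variable sites, the mean r with the own group was 0.128 in the combination 30 min libraries. It was 0.0868, 0.287 and 0.258 in those of A485 1 h. In this series 23 of 28 libraries were closest to their own group. Combination 30 min replicate 1 and A485 1 h replicates 2 and 3 were closest to combination 1 h. In bulk libraries, less signal in every cell and signal in fewer cells cannot be told apart. All of these ratios share the DMSO libraries of the choice and carry no test.

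**Figure D1:**
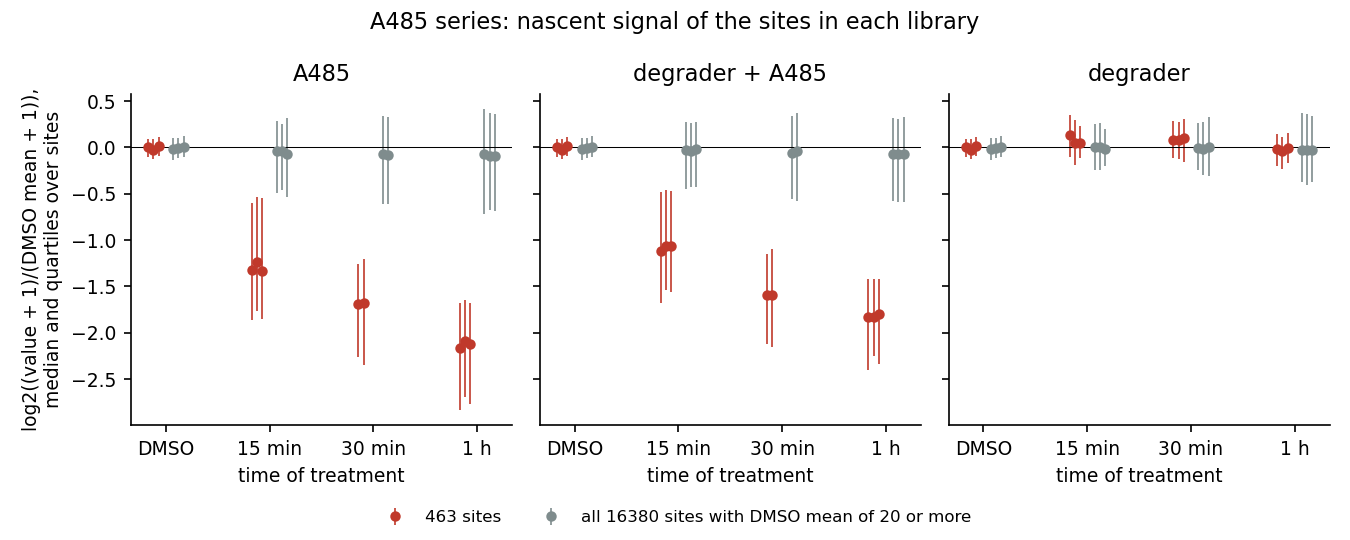
Log2 ratio of each library to the DMSO mean of the A485 series (vertical axis), as the median (point) and quartiles (bar) over the 463 A485-lowered sites (red) and over all 16380 sites with a DMSO mean of 20 or more (grey), by time of A485, of degrader plus A485 and of degrader. The red medians lie near -1.3 at 15 min and near -2.1 at 1 h of A485, and between -0.04 and 0.13 with degrader alone.

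The sites with the highest DMSO means show these courses in single libraries. The site with the highest mean, chr19:44282411-44283560 (mm39, 1150 bp), had 1074 and 1105 normalised counts in the combination at 30 min, against 2797, 3153 and 3134 with degrader at 30 min (log2 change -1.47, SE 0.11, limma, adjusted p = 1.16e-12). Its level had reached 861, 837 and 916 in the combination at 15 min, against 3165, 3341 and 3105 with degrader, so it was no lower at 30 min than at 15 min. The fourth site by DMSO mean, chr19:44270431-44272530 on the same chromosome, had 303 and 249 in the combination at 30 min, against 1123, 1196 and 1166 with degrader (log2 change -2.08, SE 0.14, limma, adjusted p = 6.16e-14). The eighth, chr6:136917411-136919000, likewise had its low level at 15 min, with 240, 220 and 229 in the combination against 892, 925 and 836 with degrader.

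Others fell step by step. The third site by DMSO mean, chr10:80514881-80516690 (1810 bp), stood at 1200, 1183 and 1138 in DMSO and 848, 837 and 854 after 15 min of A485. It had 353 and 279 after 30 min, and 188, 169 and 164 after 1 h. The DMSO and A485 1 h libraries chose the site, so its low level at 1 h was set by the choice. Between 15 and 30 min of A485 the log2 change was -1.43 (SE 0.11, limma, adjusted p = 4.32e-11). In degrader-treated cells the change with A485 was -0.44 (SE 0.10, limma, adjusted p = 0.000801) at 15 min and -1.91 (SE 0.11, limma, adjusted p = 1.36e-15) at 30 min, and the difference between the times passed its own test (-1.47, SE 0.15, limma, adjusted p = 3.95e-08). The fifth, chr8:121308711-121310780 (2070 bp), kept its level for 30 min. It had 901 and 1146 in the combination at 30 min, against 903, 1003 and 943 with degrader (log2 change 0.10, SE 0.13, limma, adjusted p = 0.596), and only the 1 h libraries were low, with 414, 272 and 299 after A485 and 348, 355 and 364 after the combination.

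**Figure D2:**
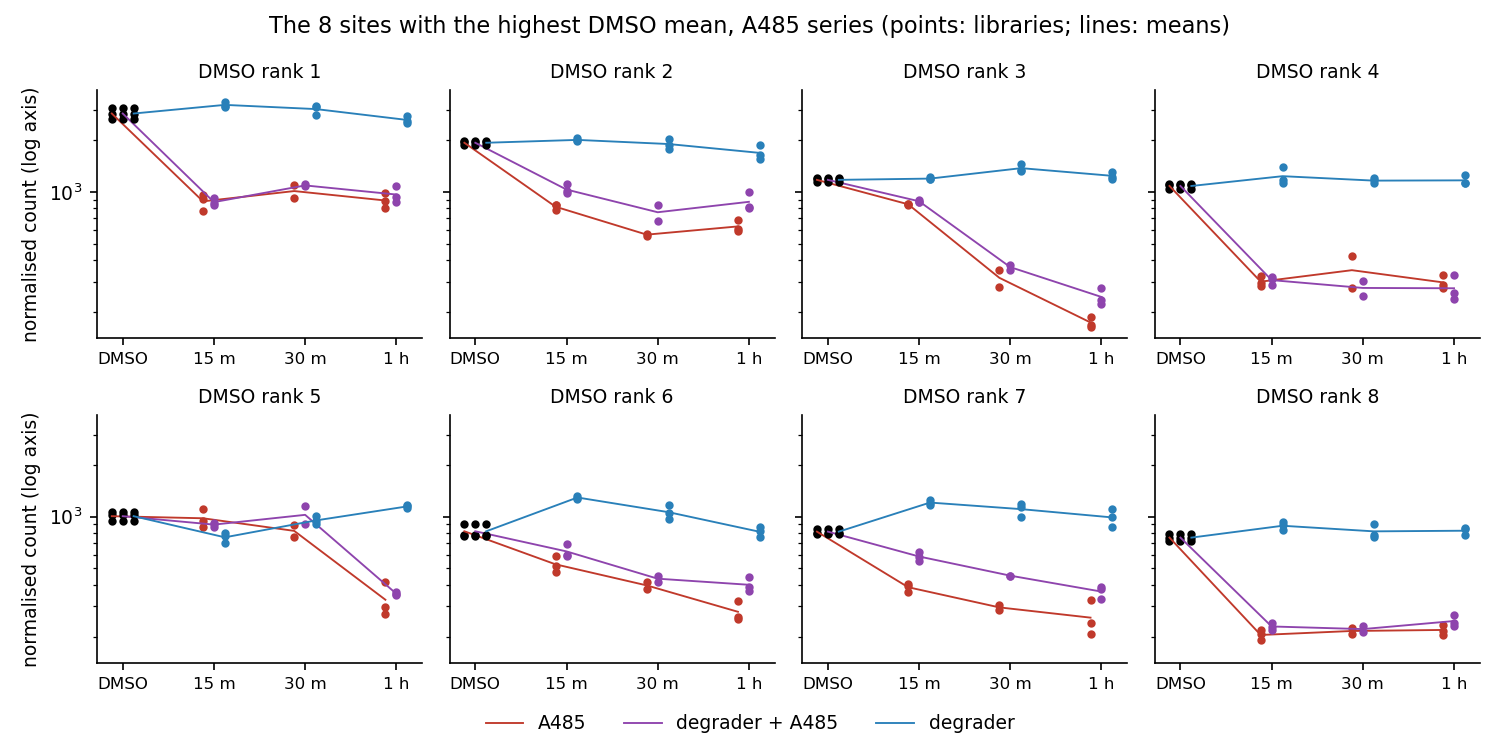
Normalised counts (log axis) of the 8 A485-lowered sites with the highest DMSO mean, by time of A485 (red), degrader plus A485 (purple) and degrader (blue), with DMSO libraries in black; points are libraries and lines group means. Ranks 1, 4 and 8 were low by 15 min, rank 3 fell at each step, and rank 5 stayed near its DMSO level until 1 h.

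The fall with A485 was tested in libraries that did not choose the sites, as the combination against degrader alone. At 15 min, 311 of the 463 sites (67.2%) were lower and 1 was higher at an adjusted p under 0.05, where 17.7% of the 21312 sites tested were lower and 8.61% higher. The median log2 change was -1.22 over the A485-lowered sites and 0.05 over all sites tested, where adding 1 before the logarithm makes changes of low sites look smaller. At 30 min, 405 sites (87.5%) were lower and 1 higher, where 21.6% of all sites tested were lower and 14.1% higher, and the median change was -1.73. In 404 of these 405 (87.3% of the sites) both libraries of the combination lay below all 3 of degrader alone, as at 21% of all sites tested. The comparison sets gave 345 of 397 degrader-raised and 255 of 447 degrader-lowered sites lower at 15 min, and 372 and 336 at 30 min. No difference between the sets was tested here or below. The single rise at 15 min was chr8:123066841-123067580 (0.32, SE 0.12, limma, adjusted p = 0.0411) and the single rise at 30 min chr5:104005501-104006490 (0.59, SE 0.18, limma, adjusted p = 0.0112), both looked up after the counts were known. At 15 min edgeR called 6 sites higher and a fit of the compared groups alone 9, against the 1 reported. Of all sites tested these called 6887 and 8726 in either direction, where the reported fit called 5609.

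By these calls, 311 sites were lower by 15 min, and 299 of them were lower at 30 min too. A further 106 (22.9%) were lower at 30 min but not called at 15 min, and 46 (9.94%) were not called lower at either time. The median change of the early sites was -1.52 at 15 min and -1.90 at 30 min, and that of the 106 later sites -0.24 and -1.62. The 46 uncalled sites had medians of -0.01 and -0.39, and a lower median DMSO mean, 42.2, than the early (89.8) and later (66.9) sites, so they also had fewer reads behind each value. The change between times was tested directly as the A485 effect in degrader-treated cells at 30 min minus that at 15 min. In this test 67 of the 463 sites were lower and 0 higher, where 1.11% of all sites tested were lower and 0.347% higher. The median difference was -0.57. At an unadjusted p under 0.05, 161 sites were lower and 7 higher by limma, a count not made over all sites. By edgeR on recovered reads 62 were lower and 0 higher, beside 271 of all 21312 sites called in either direction. Leaving out degrader 15 min replicate 5 or combination 15 min replicate 5 left 42 and 44 sites lower.

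**Figure D3:**
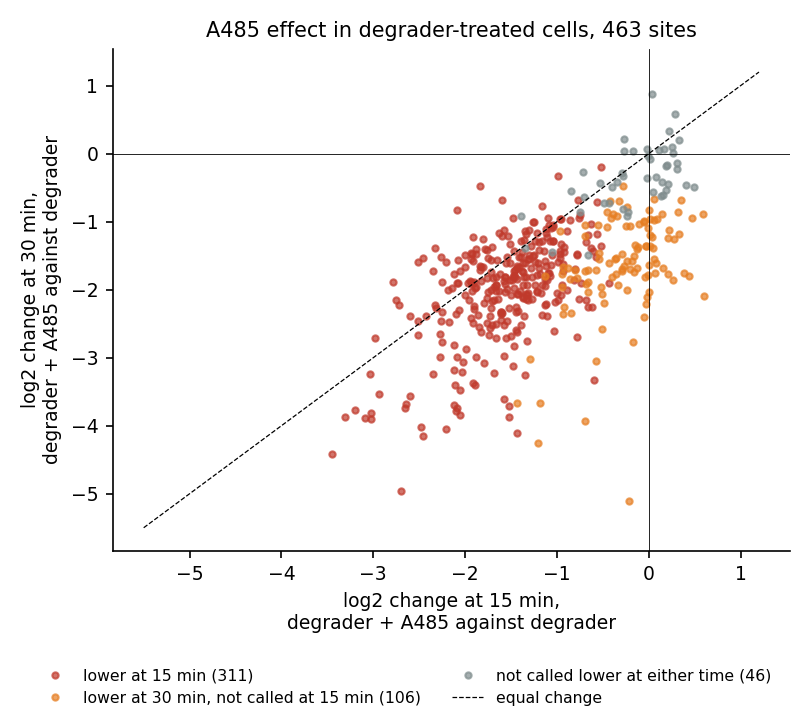
Log2 change of degrader plus A485 against degrader at 30 min (vertical) and at 15 min (horizontal) for each of the 463 sites, coloured by the calls at the 2 times; the dashed line marks equal changes. Most points lie below the line, and the 106 sites called at 30 min only (orange) cluster near 0 at 15 min and near -1.6 at 30 min.

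Without degrader, A485 alone was compared between times. At 30 min against 15 min of A485, 123 of the 463 sites were lower and 2 higher, where 5.1% of all sites tested were lower and 4.96% higher, with a median change of -0.45. The 2 higher sites were chr10:62339391-62340370 (0.62, SE 0.15, limma, adjusted p = 0.00522) and chr5:136654041-136654550 (0.87, SE 0.23, limma, adjusted p = 0.0103), named after the count was known. Of 447 degrader-lowered sites 127 were lower and 2 higher, with a median of -0.60. Of 397 degrader-raised sites 53 were lower and 6 higher, with a median of -0.16. The fall was thus not particular to the A485-lowered sites. Most of the 463 sites had no called change between these times.

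The largest falls at 30 min ended at few reads in the combination libraries, where 1 read weighs much. At chr15:73475281-73475610 (330 bp) the combination had 1.87 and 0 normalised counts, against 55.7, 79.8 and 43.0 with degrader (log2 change -5.11, SE 0.35, limma, adjusted p = 6.94e-14). The same site had 41.9, 33.9 and 41.3 in the combination at 15 min, against 51.0, 40.1 and 45.9 with degrader, groups that overlap, and its change between times was -4.89 (SE 0.47, limma, adjusted p = 1.77e-08). At chr9:43136811-43137290 (480 bp) the fall was early, with 6.79, 14.4 and 13.8 in the combination at 15 min against 79.2, 74.2 and 78.7 with degrader, and 3.74 and 0 at 30 min against 65.2, 61.9 and 74.8. Its log2 change was -2.69 (SE 0.40) at 15 min and -4.97 (SE 0.45) at 30 min, with limma adjusted p = 1.57e-06 and 4.72e-11. The other 6 of the 8 largest falls, chr13:24096821-24097760, chr15:73484331-73484660, chr3:60908991-60909290, chr15:88504261-88504700, chr6:86071791-86072280 and chr5:75991671-75992500, had log2 changes of -4.42 to -4.02. At chr13:24096821-24097760 all 3 libraries of A485 1 h were listed at 0, beside 25.6, 24.5 and 34.3 in DMSO.

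Few sites were called when degrader was added to A485. The combination against A485 alone gave 9 higher and 0 lower sites at 15 min, where 0.633% of all sites tested were higher and 0.00938% lower. At an unadjusted p under 0.05 limma gave 55 higher and 2 lower, beside 1341 of all 21312 sites in either direction. By edgeR 9 were higher and 0 lower, beside 160 of all sites called. Without A485 15 min replicate 4, combination 15 min replicate 4 or combination 15 min replicate 5 there were 5 higher. At 30 min the combination against A485 gave 12 higher and 3 lower sites, where 0.948% were higher and 0.469% lower. The median changes were 0.16 at 15 min and 0.08 at 30 min. The degrader-raised comparison set had 42 of 397 higher at 15 min and 59 at 30 min. Without A485 30 min replicate 2 there were 7 higher at 30 min. The 30 min calls depended on the model. By edgeR 1 was higher and 0 lower, beside 65 of all sites called. A limma fit of the compared groups alone called 0 in either direction, beside 46 of all sites. At an unadjusted p under 0.05 that limma fit gave 33 higher and 8 lower, a count not made over all sites.

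The 3 largest rises and falls of that 30 min comparison were at sites with 62.5 normalised counts or less in the libraries compared. At chr4:114520311-114521040 the combination had 16.8 and 12.9, against 2.72 and 3.15 with A485 (log2 change 2.00, SE 0.37, limma, adjusted p = 0.00198). At chr13:59374691-59375240 the values were 13.1 and 28.3 against 5.44 and 6.31 (1.57, SE 0.42, limma, adjusted p = 0.0452), and at chr16:33860881-33861540 35.5 and 43.7 against 12.2 and 17.3 (1.37, SE 0.27, limma, adjusted p = 0.00393). The falls were chr15:88504261-88504700 (-2.46), chr15:73475281-73475610 (-1.98) and chr7:96426261-96427390 (-1.30), the last with 31.8 and 18.0 in the combination against 62.5 and 58.3 with A485. None of the 6 kept an adjusted p under 0.05 by edgeR, where it ranged from 0.0865 to 0.557.

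In the time course, these sites were more often higher than lower after degrader. Of 461 sites tested, 113 were higher and 1 lower at 15 min, where 11.7% of the 23307 sites tested were higher and 2.16% lower. At 30 min 129 were higher and 4 lower, where 12% were higher and 4% lower. At 1 h 108 were higher and 4 lower, where 12.3% were higher and 3.07% lower. At 2 h 96 were higher and 5 lower, where 8.92% were higher and 1.58% lower. The higher share was thus 24.5%, 28%, 23.4% and 20.8% of the sites at the 4 times, all of which share the 3 DMSO libraries, and the median changes were 0.29, 0.27, 0.29 and 0.35. All 11 degrader libraries lay above all 3 DMSO libraries at 95 of 462 sites (20.6%), as they did at 2333 of the 23307 sites tested (10%), and all 11 lay below at 4 sites (0.866%), as at 635 of all sites tested (2.72%).

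Single libraries showed the same direction. The site medians of the 19 degrader and washout libraries lay between 0.23 and 0.52 above DMSO, while those of the DMSO libraries were -0.07, -0.02 and 0.07. The 5 libraries named degrader 1 h and 2 h but labelled A485 had medians of 0.23 to 0.34, where A485 in the A485 series gave -1.31 to -1.99 by group. The degrader-raised set had 296 of 397 sites higher and 0 lower at 1 h with a median of 1.09, and the degrader-lowered set 18 of 452 higher and 63 lower with a median of -0.21, so the A485-lowered sites lay between them. Without the 3 libraries that went against their group, 155 sites were higher and 13 lower at 15 min, 155 and 2 at 30 min, 173 and 18 at 1 h, and 157 and 16 at 2 h. Without those 3 libraries the higher share over all sites was 15.2%, 13%, 15.9% and 12.7%, and the lower share 8.92%, 4.87%, 8.29% and 4.74%. With all other libraries kept, leaving out degrader 2 h replicate 1 or 2 left 65 and 48 of 101 calls at 2 h.

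**Figure D4:**
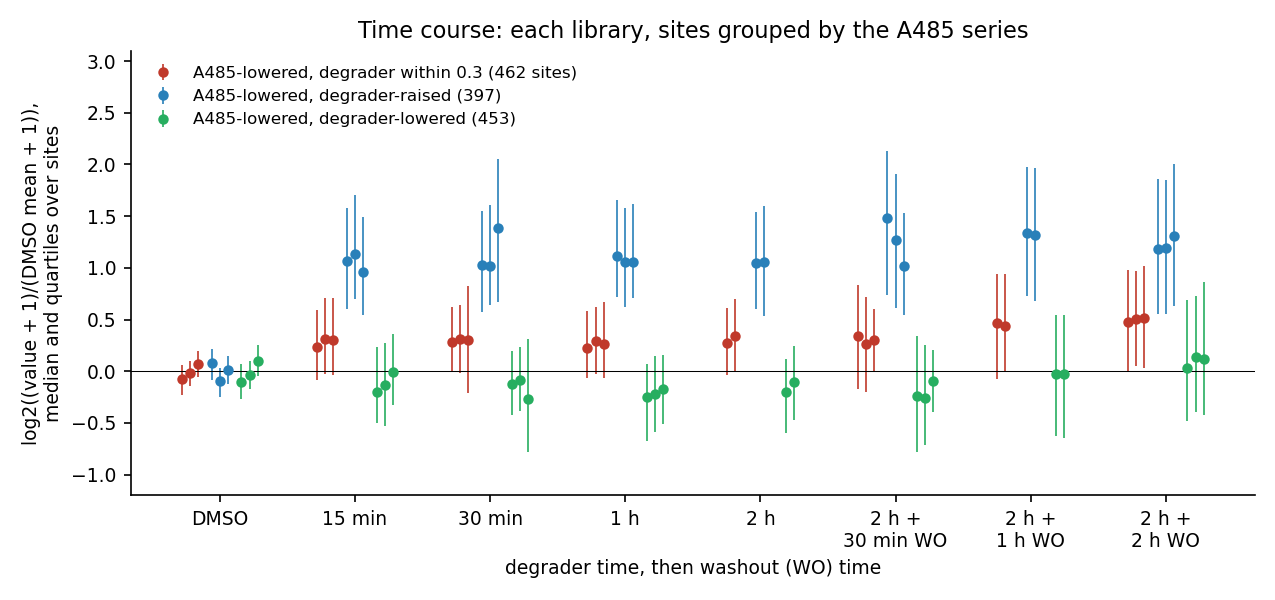
Log2 ratio of each time-course library to the DMSO mean (vertical), as the median and quartiles over the A485-lowered sites (red), the degrader-raised set (blue) and the degrader-lowered set (green), by time of degrader and of washout after 2 h of degrader. The red medians lie between 0.23 and 0.52 in every library with degrader or washout, below the blue and above the green in each of them.

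The level before treatment differed between the series at sites lowered by A485, these included. Relative to all sites, the DMSO level in the A485 series was higher than in the time course by a median log2 ratio of 0.39 over 462 sites, and that in the LBH589 series by 0.54. The first value uses DMSO libraries that chose the sites and the second does not, and the tables were normalised separately, so no test was made. The degrader-raised set had 0.37 and 0.74, the degrader-lowered set 0.47 and 0.63, and the other sites with a DMSO mean of at least 20 had -0.03 and -0.04, so the difference was not particular to these sites. The part of this difference in the time-course changes was not tested.

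The largest rises at 2 h of degrader in the time course were at low sites. At chr13:59374691-59375240 (550 bp) the 2 h libraries had 44.5 and 55.2, against 7.47, 10.96 and 17.9 in DMSO (log2 change 2.03, SE 0.30, limma, adjusted p = 2.84e-05), and the level stayed high after 2 h of washout at 110, 142 and 172. At chr10:21037971-21038650 (680 bp) they had 34.0 and 37.1 against 7.47, 12.8 and 7.46 in DMSO (1.88, SE 0.34, limma, adjusted p = 0.000326). At chr12:111483461-111484460 (1000 bp) they had 75.9 and 67.3 against 28.0, 14.6 and 20.9 (1.75, SE 0.33, limma, adjusted p = 0.00053), but after 2 h of washout 17.0, 20.3 and 30.2, within the DMSO range apart from 1 library. Among the sites with many reads, chr17:84421231-84423690 (2460 bp) had 1475 and 1658 against 693, 589 and 628 in DMSO (1.30, SE 0.23, limma, adjusted p = 0.000251), with no overlap.

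The falls were few. At 2 h they were chr19:7996961-7997480, with 229 and 253 against 510, 636 and 631 in DMSO (-1.29, SE 0.24, limma, adjusted p = 0.000471), chr7:19550541-19551080 (-0.98), chr4:143479591-143480680 (-0.82), chr19:44270431-44272530 (-0.64) and chr14:70293091-70294490 (-0.48). Of these, chr4:143479591-143480680 was also called lower at 30 min (-0.98) and 1 h (-0.78). The other falls were chr19:53238401-53238970 at 15 min (-0.45), chr15:97724581-97724940 (-0.73), chr16:43323421-43324590 (-0.65) and chrX:72784521-72785650 (-0.73) at 30 min, and chr10:62347061-62347380 (-1.11), chr14:79821331-79822000 (-0.54) and chr8:14005381-14006030 (-0.61) at 1 h, those outside the naming rule being looked up after the counts were known. The site with the highest level, chr19:44282411-44283560, followed the libraries that stood apart: it had 6076, 5615 and 1872 at 30 min of degrader, 1823, 2100 and 5979 at 30 min of washout, and 3951, 3580 and 3734 in DMSO.

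After washout of the degrader, more of these sites were higher than lower. After 2 h of washout against 2 h of degrader, 88 of 461 sites were higher and 18 lower, where 5.64% of all sites tested were higher and 6.13% lower, with a median change of 0.15. The comparison sets moved the same way, so this was not particular to these sites. Of 397 degrader-raised sites 64 were higher and 26 lower, with a median of 0.11. Of 452 degrader-lowered sites 108 were higher and 13 lower, with a median of 0.28. Against DMSO the group medians were 0.34 at 2 h of degrader, and 0.27, 0.43 and 0.50 after 30 min, 1 h and 2 h of washout. These medians rest on the same DMSO libraries and on 2 libraries at 2 h of degrader. Without the 3 libraries that stood apart 133 sites were higher and 42 lower, where 11.9% and 11.8% of all sites were, and leaving out either of the 2 libraries at 2 h of degrader left 27 and 37 calls of 106. Without 2 h washout replicate 1 or 3 there were 69 and 56.

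LBH589 lowered more of these sites than it raised. At 30 min 161 of 463 sites were lower and 18 higher, where 8.93% of the 22740 sites tested were lower and 9.34% higher. At 1 h 249 (53.8%) were lower and 30 higher, where 19% were lower and 17.4% higher. The median changes were -0.25 and -0.43, and the library medians at 1 h were -0.46, -0.43 and -0.38, against 0.00, -0.03 and 0.02 in DMSO, with no overlap. Over all sites with a DMSO mean of at least 20 the library medians did not overlap either, but lay closer. They were -0.058, -0.050 and -0.059 at 1 h, against -0.001, 0.004 and -0.009 in DMSO. In the direct test of 1 h against 30 min of LBH589, 99 sites were lower and 9 higher, where 9.38% were lower and 6.25% higher, with a median of -0.12. The comparison sets moved the same way at 1 h, with 155 of 397 degrader-raised sites lower and 46 higher, and 228 of 456 degrader-lowered sites lower and 29 higher.

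The largest falls with LBH589 at 1 h reached low counts. The narrowest A485-lowered site, chr17:12722041-12722240 (200 bp), had 5.87, 1.82 and 8.74 against 30.6, 25.02 and 28.8 in DMSO (log2 change -2.34, SE 0.37, limma, adjusted p = 1.22e-06). A pair of chromosome 2 sites came next. At chr2:27957051-27957930 the values were 15.1, 20.9 and 21.0 against 102, 68.2 and 115 in DMSO (-2.24, SE 0.24, limma, adjusted p = 1.99e-10), and at chr2:27930591-27931040 they were 21.8, 23.7 and 27.1 against 106, 87.6 and 77.8 (-1.85, SE 0.23, limma, adjusted p = 1.08e-08).

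A minority rose with LBH589. At chr19:32882341-32883630 (1290 bp) the 1 h libraries had 137, 162 and 166, against 52.9, 50.0 and 76.7 in DMSO (log2 change 1.38, SE 0.15, limma, adjusted p = 1.18e-10). At chr9:43954741-43955910 (1170 bp) they had 96.5, 94.7 and 97.0 against 44.6, 40.9 and 51.1 (1.07, SE 0.15, limma, adjusted p = 2.06e-07), and at chr12:111483461-111484460 32.7, 20.02 and 29.7 against 22.3, 7.96 and 7.46 (1.21, SE 0.32, limma, adjusted p = 0.00226), groups that overlap. The site with the highest DMSO mean in the A485 series, chr19:44282411-44283560, rose too, with 1566, 1463 and 1467 against 937, 1038 and 946 in DMSO (0.62, SE 0.08, limma, adjusted p = 3.85e-09). At the site that kept its level for 30 min of A485, chr8:121308711-121310780, LBH589 for 1 h gave 875, 912 and 843 against 1452, 1516 and 1582 in DMSO (-0.79, SE 0.07, limma, adjusted p = 1.54e-12).

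**Figure D5:**
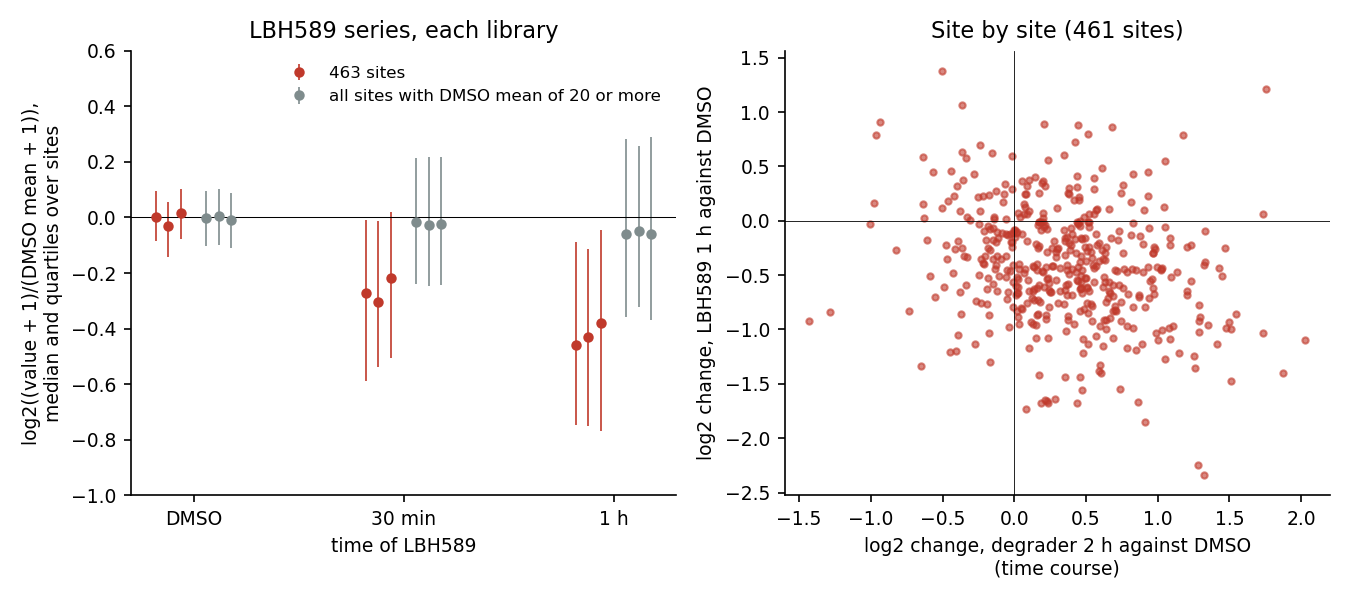
Left, log2 ratio of each library of the LBH589 series to the DMSO mean, as the median and quartiles over the 463 A485-lowered sites (red) and over all sites with a DMSO mean of 20 or more (grey), by time of LBH589. Right, log2 change after 1 h of LBH589 (vertical) against that after 2 h of degrader in the time course (horizontal) for 461 sites. The red medians at 1 h are -0.46, -0.43 and -0.38, and the points at right show a weak inverse relation (r = -0.26).

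Responses to the agents were set side by side where they shared no library. Across 461 sites, the change after 1 h of LBH589 and that after 2 h of degrader in the time course had r = -0.26 (Spearman's rho = -0.25), and 71 sites (15.4%) were lower with LBH589 and higher with degrader, as were 2.02% of the 21891 sites tested in both. Each single share was also above that of all sites tested. With LBH589 53.8% were lower (19% of all), and with degrader 20.8% were higher (8.92% of all). The joint count was not tested, and r was not computed over all sites. In both comparisons 3 sites (0.651%) were higher, as were 1.74% of those 21891. They were chr11:115978711-115979710, chr12:111483461-111484460 and chr8:86106431-86107590, looked up after the count. Across 463 sites, the change with A485 at 30 min in degrader-treated cells and that with LBH589 had r = 0.08 (Spearman's rho = 0.07). These are descriptions across sites, which are not independent replicates and share mean level and read depth. LBH589 for 1 h was called to lower 180 of the 311 sites that fell by 15 min of A485 (57.9%), 53 of the 106 later ones (50%) and 16 of the 46 uncalled ones (34.8%), which differ in DMSO level as given above.

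In the LBH589 washout series, 429 of the 463 sites were tested and few were called. At 1 h against 30 min of washout 13 were higher and 23 lower, where 2.83% of the 17435 sites tested were higher and 2.7% lower, with a median of -0.09. The library 1 h washout replicate 3 had a site median of -0.18, against 0.00 and -0.01 in the other 1 h libraries, and a mean correlation of -0.09 with them. Without it 33 sites were higher and 46 lower, where 6.45% and 7.37% of all sites were, and the median was 0.007. Without 30 min washout replicate 1, 2 or 3 the calls numbered 6, 1 and 1.

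The A485-lowered sites, like both comparison sets, were often close to other sites that were low with A485. Their median width was 670 bp (200 to 3640 bp), beside 930 bp for the degrader-raised set, 550 bp for the degrader-lowered set and 800 bp for the other sites with a DMSO mean of at least 20. The nearest other site lay a median of 1.66 kb away, beside 0.97 kb for the degrader-raised set, 1.33 kb for the degrader-lowered set and 3.34 kb for those other sites. Another site lay within 10 kb of 391 (84.4%), beside 86.6%, 83.6% and 70.7% in the same order. Of the 379 nearest neighbours with a DMSO mean of at least 20, 211 (55.7%) had an A485 1 h ratio of -1.5 or less, as did 57.4% of the neighbours of the degrader-raised set, 41.6% of those of the degrader-lowered set and 515 of 10181 (5.06%) neighbours of the other sites. The A485 ratio is the measure that chose the sites, so this is a description, and whether close sites share transcripts was not tested. By chromosome, 45 sites (9.72%) lay on chromosome 15 and 42 (9.07%) on chromosome 17, which held 4.71% and 5.29% of all sites with a DMSO mean of at least 20, and 15 (3.24%) on chromosome 4, which held 6.79%.

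There were 169 sites (36.5%) in 66 runs with gaps of at most 10 kb between A485-lowered sites. The same count gave 33.8% of the degrader-raised and 29% of the degrader-lowered set, each over its own sites. The longest run, of 7 sites over 21.5 kb at chr17:84421231-84442700, held the seventh site by DMSO mean. All 7 were lower in the combination than with degrader at 30 min, by log2 changes of -2.07 to -1.28, 6 were lower with LBH589 at 1 h, and 4 were higher at 2 h of degrader in the time course. Its changes at 15 min were of like size, from -1.5 to -1.04.

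In the next run, 6 sites over 30.4 kb at chr8:123020501-123050930, the 15 min change varied with position. From the lowest coordinate upward, the change in the combination against degrader at 15 min was -2.12, -1.80, -1.32, -1.04, -0.05 and -0.17, while at 30 min it was -3.19 to -2.40 at all 6. The member next to this run, chr8:123066841-123067580, was the site called higher at 15 min, with 703, 674 and 712 normalised counts in the combination against 553, 519 and 608 with degrader, and at 30 min it had 342 and 283 against 549, 578 and 564. All 6 sites of the run were lower with LBH589 at 1 h (-1.67 to -1.42) and 0 were called at 2 h of degrader in the time course, where their changes were 0.18 to 0.47. The run of 5 sites over 8.42 kb at chr7:126695331-126703750 had 15 min changes of -1.88, -1.24, -0.98, 0.01 and 0.01 from the lowest coordinate upward, and 4 of the 5 were called lower at 30 min. These orders were noticed after the values were seen, and carry no test.

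Both sites of each of the 3 closest pairs were lower with A485 at 30 min. The sites chr8:121062541-121062970 and chr8:121062981-121063380, 10 bp apart, had A485 changes of -2.32 (SE 0.22) and -2.38 (SE 0.24) at 30 min in degrader-treated cells. LBH589 for 1 h changed them by -0.59 and -1.13, and 2 h of degrader in the time course by 0.73 and 1.41, all with limma adjusted p of 0.0118 or less. The pair chr15:98500461-98501240 and chr15:98501261-98501840, 20 bp apart, had A485 changes of -1.98 and -2.46, and the pair chr10:80514881-80516690 and chr10:80516721-80517080, 30 bp apart, -1.91 and -3.04. Sites this close are not independent.

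The 2 widest and the 2 narrowest sites took different courses. The narrowest, chr17:12722041-12722240 (200 bp), had few reads and was lower in the combination than with degrader at both times. Its log2 change was -3.02 (SE 0.61, limma, adjusted p = 0.000218) at 15 min and -3.9 (SE 0.69, limma, adjusted p = 2.39e-05) at 30 min. At the widest, chr2:35198951-35202590 (3640 bp), the combination had 103 and 118 at 30 min against 331, 357 and 291 with degrader (-1.55, SE 0.16, limma, adjusted p = 1.22e-09), but 232, 260 and 247 at 15 min against 315, 328 and 311 (-0.37, SE 0.14, limma, adjusted p = 0.0561). At chr7:16028091-16031640 (3550 bp) the changes were -1.05 at 15 min and -1.08 at 30 min, and 2 h of washout in the time course brought it to 258, 202 and 223, against 512 and 545 at 2 h of degrader (-1.22, SE 0.16, limma, adjusted p = 4.71e-05). The narrow site chr19:53239531-53239750 (220 bp) was not called in any of these tests, with 39.2 and 43.7 in the combination at 30 min against 60.4, 61.4 and 51.6 with degrader (-0.47, SE 0.31, limma, adjusted p = 0.24).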

How the data were processed

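PRO-seq values of 4 dREG tables were used. The authors deposited each value as a signal: a read count scaled per library with DESeq2, per the labels. Their roles not being stated, the software in the submitters' processing notes was DESeq2 1.46.0, featureCounts 2.0.1, HOMER, bedtools, SAMtools 1.16.1 and Bowtie2 2.2.2, and the builds were dm3 and mm39. Median-ratio size factors recomputed over the sites hardly differed between libraries of a table, so a change shared by most sites would not show. Every value was a whole number of reads (100% within 0.1 reads) after division by what 1 read is worth in that library.

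Sites whose mean reached 10 entered limma 3.58.1 (R 4.3.3; lmFit, eBayes with trend) on log2(value + 1), all groups of a table in 1 fit, with Benjamini-Hochberg adjustment over all sites tested and a threshold of 0.05. The count test, edgeR 4.0.16 quasi-likelihood on recovered reads with TMM, was an alternative and called, for example, 6993 of 21312 sites for the combination against degrader at 30 min, where limma called 7615. The procedure was tested on simulated data with the same dispersion at all sites and no libraries that stood apart. That test therefore does not give the error rate in these libraries. Nothing in the labels says that replicates were separate cultures, so p-values measure the spread between these libraries. Tables were normalised separately and tested separately.

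The sites and the lists were chosen with earlier results of these data known. Sites named are the 8 with the highest DMSO mean, the 8 largest falls with the combination against degrader at 30 min with libraries that do not overlap, the 3 largest rises and falls of 3 comparisons (LBH589 1 h, time-course degrader 2 h, combination against A485 at 30 min), the 2 widest and 2 narrowest, the 3 closest pairs and runs, and sites at the limits. Coordinates are 1-based in mm39. The reference tables at hand are of another build, so genes and sequences near the sites were not analysed here. Figures were drawn with matplotlib 3.10.9 in Python 3.11.15.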

Additional observations from a re-analysis of the deposited data

Results flagged for a closer look

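The effect of A485 in degrader-treated cells differed between 15 and 30 min at 67 of the 463 A485-lowered sites, all lower at 30 min, by the direct test of the difference. Of all sites tested, 1.11% were lower and 0.347% higher. The effect of LBH589 differed between 30 min and 1 h at 99 sites that were lower at 1 h, beside 9 that were higher. Of all sites tested in that comparison, 9.38% were lower and 6.25% higher.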

How the results depend on the processing

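Of the counts of called sites and of members under other settings, 184 stayed within 1.5 times the reported value and 28 did not; no named site changed direction, and 33 refits of named sites lost the call while 245 kept it. Medians moved by at most 1 SD in 133 refits and by more in 48, where the SD is that of the library medians of the treated group. With few libraries that SD can be very small. For the combination at 30 min the library medians were -1.596 and -1.593, and a shift from -1.732 to -1.734 counted as more. For the combination against A485 at 30 min (12 higher), edgeR on recovered reads gave 1 and a fit of the compared groups alone 0. Of all 21312 sites tested these called 65 and 46 in either direction, where the reported fit called 302. In the time course, a fit of the compared groups alone gave 87 calls at 30 min (133 reported). Of all 23307 sites tested it called 2116, where the reported fit called 3724. For 2 h of washout it gave 203 (106 reported), with 6702 of all sites called against 2744. Leaving out the 3 libraries that stood apart, chosen after seeing the data, gave 191 at 1 h (112), 173 at 2 h (101) and 175 for washout (106). The shares over all sites without these libraries are given above. For LBH589 washout (36), no filter on low values gave 0, and 0 of all 29632 sites. At an unadjusted p under 0.05 by limma, 50 of the chosen sites were higher and 62 lower in that fit, a count not made over all sites. Fewer libraries or groups entered the fits of compared groups alone and those without the 3 libraries. The edgeR fit and the fit with no filter kept all libraries and groups. Why the counts moved was not tested. The number of sites was 875 with A485 at -1 or less, 231 at -2 or less, 725 with degrader within 0.5 and 304 with a DMSO mean of at least 50 (463 reported). Leaving out 1 library at a time gave 279 to 286 lower sites for the combination against degrader at 15 min, 364 to 401 at 30 min, 83 to 104 for A485 30 against 15 min, 42 to 59 for the difference between times, 5 to 10 and 7 to 18 higher sites for the combination against A485 at 15 and 30 min, 132 to 146 and 219 to 238 lower sites for LBH589 at 30 min and 1 h, 71 to 86 for their difference, 1 to 79 calls for LBH589 washout, 88 to 112, 100 to 126, 84 to 107 and 48 to 98 calls for degrader at 15 min, 30 min, 1 h and 2 h, 27 to 72 for washout, and 449 to 493 sites chosen. Without LBH589 30 min washout replicates 2 or 3 a single washout call was left, and the median of that comparison turned to 0.007 without 1 h washout replicate 3. The replicate numbers did not pair the libraries (correlations of deviations from -0.06 to 0.11); with a replicate block the counts were 312 for the combination against degrader at 15 min, 9 and 13 for the combination against A485 at 15 and 30 min, 110, 132, 109 and 96 for degrader in the time course, 96 for washout, 38 for LBH589 washout and 108 for the LBH589 difference, and the block moved no count by over 1.5 times. No paired analysis was possible for the other comparisons because their groups share fewer than 2 numbers. Nearest genes were not run, since no annotation of the build was at hand. Depth limits the low sites and A485 1 h replicate 1.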
